A study of Mus musculus with 24 samples.

Results

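Aminoacyl-tRNA synthetases were followed across mouse bone marrow-derived macrophages kept in 4 media with and without lipopolysaccharide (LPS). The members were the 20 cytosolic and 16 mitochondrial synthetase genes of a list by name, each represented by the probe set that names that gene alone and has the highest mean over all 24 arrays. Of these 36 genes, 35 had such a probe set, of 18193 genes that had one, and Dars dropped out for lack of it. The mitochondrial Mars2 stayed below the filter on dim probe sets, with log2 levels between 2.78 and 3.56 on the 24 arrays, so 34 members (19 cytosolic and 15 mitochondrial) were tested among 11785 genes. The cells came from C57Bl/6 mice and carried no transgene or deletion named in the labels. They were plated overnight, washed, and given fresh medium that was serum-free or held fetal calf, mouse or human serum at 5%, each serum heated at 56 °C for 30 min before use. Either plain medium or 25 ng/ml LPS, the bacterial ligand of Toll-like receptor 4, was added at that point, and cells were harvested 4 h later. There were 3 arrays in each of the 8 groups, 1 from each of the replicate experiments G, H and I. Each serum came from a single supplier, so the species of a serum and the product used cannot be told apart. These were bulk samples, in which fewer cells of a type and less RNA per cell cannot be told apart.

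A synthetase attaches one kind of amino acid to its tRNAs, and the charged tRNAs feed the ribosome. Most amino acids have a cytosolic enzyme and a separate, nuclear-encoded mitochondrial enzyme (the names ending in 2), which charges the tRNAs of mitochondrial translation. The compartment of a member was taken from its name alone. Genes such as Gars and Kars, which have no partner ending in 2 in the list, were counted as cytosolic, and a mitochondrial product of them was not examined. Genes of many cytosolic synthetases are textbook targets of ATF4, the transcription factor of the amino acid and integrated stress response, which binds an element called CARE. In macrophages, Wars is known in addition as an interferon-induced gene, and several cytosolic enzymes sit together with the scaffold proteins Aimp1, Aimp2 and Eef1e1 in the multi-synthetase complex.

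Promoters of the members were examined after many cytosolic members were seen to move together. A link between promoter sequence and levels was not tested. RefSeq windows (GRCm38.p6) from 250 bases before to 50 bases after the start were found for 26 of the 35 members. The CARE sequence TGATGNAA, read on both strands, occurred in 5 of 8 cytosolic members that are textbook ATF4 targets (Aars, Gars, Iars, Tars and Yars), in 0 of 4 other cytosolic members and in 0 of 14 mitochondrial members. It occurred in 4.51% of all genes with windows of the same length. The matches of Iars and Yars lie downstream of the start. The matches of Aars, Gars and Tars that lie upstream of the start are shown with the gene's strand read 5′ to 3′, and capitals mark the match, which is on the opposite strand in each. In Aars it ends 105 bases upstream of the start, in Gars 23 and in Tars 8.
Aars, chr8:111033690-111033777 (+): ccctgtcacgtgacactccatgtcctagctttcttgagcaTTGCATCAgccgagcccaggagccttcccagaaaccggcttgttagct
Gars, chr6:55037931-55038000 (+): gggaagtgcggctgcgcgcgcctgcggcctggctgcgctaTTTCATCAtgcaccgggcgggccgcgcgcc
Tars, chr15:11399659-11399713 (-): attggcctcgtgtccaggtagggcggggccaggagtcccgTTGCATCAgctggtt
An ISRE-like element, as found in interferon-response sites, occurred in 1 member, Qars, and in 3.99% of all genes. A match describes the letters of the window and is not evidence of binding.

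The median log2 value of an array was 5.04 to 5.13, and across genes (no independent replicates) arrays of the same group correlated with r from 0.983 to 0.992. All 8 macrophage markers examined (among them Csf1r, Cd68 and Adgre1) had means above the filter, with a summed log2 level of 15.39 to 15.52 over the groups. Of the markers of T cells (5), fibroblasts (5) and mast cells (4), 0 had a mean above it. Above it were Cd79b of the B cell list (summed level 6.67 to 7.68), 4 of 7 neutrophil and precursor markers (S100a8, S100a9, Ngp and Camp, summed level 9.74 to 10.61), 3 of 5 erythroid and megakaryocyte markers (Pf4, Ppbp and Itga2b, 12.20 to 12.73), Zbtb46 and Siglech of the dendritic list (6.63 to 6.81) and Kdr of the endothelial list (6.69 to 8.39, the widest range of these lists). The part of these cells in the results was not tested. Differences below are log2 differences ± standard error from limma with 3 arrays per group, p was adjusted over all 11785 genes, a call means an adjusted p under 0.05, and levels of different genes are not compared because each probe set has its own scale.

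Without LPS, most cytosolic synthetases were lower in calf serum than in no serum, while 1 mitochondrial one was. Of the 19 cytosolic members 12 were lower than in no serum and 0 were higher, against 2.27% of all genes lower and 0.696% higher. The median difference was -0.50 for the cytosolic members, 0.04 for the mitochondrial members and 0.00 for all genes. Of the 15 mitochondrial members 1 was lower and 0 higher. Leaving out experiment G or experiment I on all groups reduced the cytosolic count to 6, and leaving out single arrays or experiment H left more.

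Yars, the tyrosyl enzyme, gave log2 levels of 8.44, 8.57 and 8.81 in no serum and 7.35, 7.73 and 7.79 in calf serum. The groups did not overlap, and the difference of -0.98 ± 0.13 (1.98-fold, adjusted p = 3e-05 in limma) was the greatest among the members called. Iars, which charges isoleucine tRNA, stood at 11.07, 10.70 and 10.68 in no serum against 9.99, 10.05 and 10.04 in calf serum, a difference of -0.79 ± 0.14 (adjusted p = 0.0012, limma). Aars, for alanine, stood at 11.38, 11.54 and 11.53 against 10.69, 10.78 and 10.61, a difference of -0.79 ± 0.10 (adjusted p = 3.3e-05, limma). The calf serum arrays of these genes lay below all no-serum arrays. Gars, for glycine, had the smallest p of the members: 11.85, 11.96 and 11.87 in no serum, 11.16, 11.33 and 11.14 in calf serum, and a difference of -0.68 ± 0.06 (adjusted p = 1.1e-07, limma). Sars, for serine, stood at 11.99, 12.06 and 11.94 against 11.29, 11.55 and 11.03 (-0.71 ± 0.10, adjusted p = 5.4e-05, limma).

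The other cytosolic members lower in calf serum were Cars (-0.67), Mars1 (-0.59), Lars (-0.59), Tars (-0.52), the bifunctional Eprs (-0.50), Rars (-0.30) and Nars (-0.29), with adjusted p between 0.0001 and 0.034 in limma. Every one of the 12 was lower in all 3 experiments, and Rars alone had groups that overlapped on the log2 scale. Cars, Mars1, Tars, Nars and Rars lost the call when a single array of these groups was left out. Cytosolic members without a call included Wars (-0.05, 95% interval -0.35 to 0.25), Kars (-0.14, -0.40 to 0.12), Hars (0.04, -0.12 to 0.21) and Qars (0.18, -0.02 to 0.38).

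Grouped by background knowledge, 11 of the 12 textbook ATF4 targets among the cytosolic members were lower in calf serum (median -0.63), Wars being the exception, and 1 of the 7 others, Rars, was lower (median -0.13). The grouping was chosen with earlier results of these data known, so this split is descriptive. Members of the multi-synthetase complex and free enzymes were lower in 5 of 7 and 7 of 12 cases, and enzymes of structural class I and class II in 6 of 9 and 5 of 9, with Eprs, which has a domain of each class, counted in neither.

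**Figure D1:**
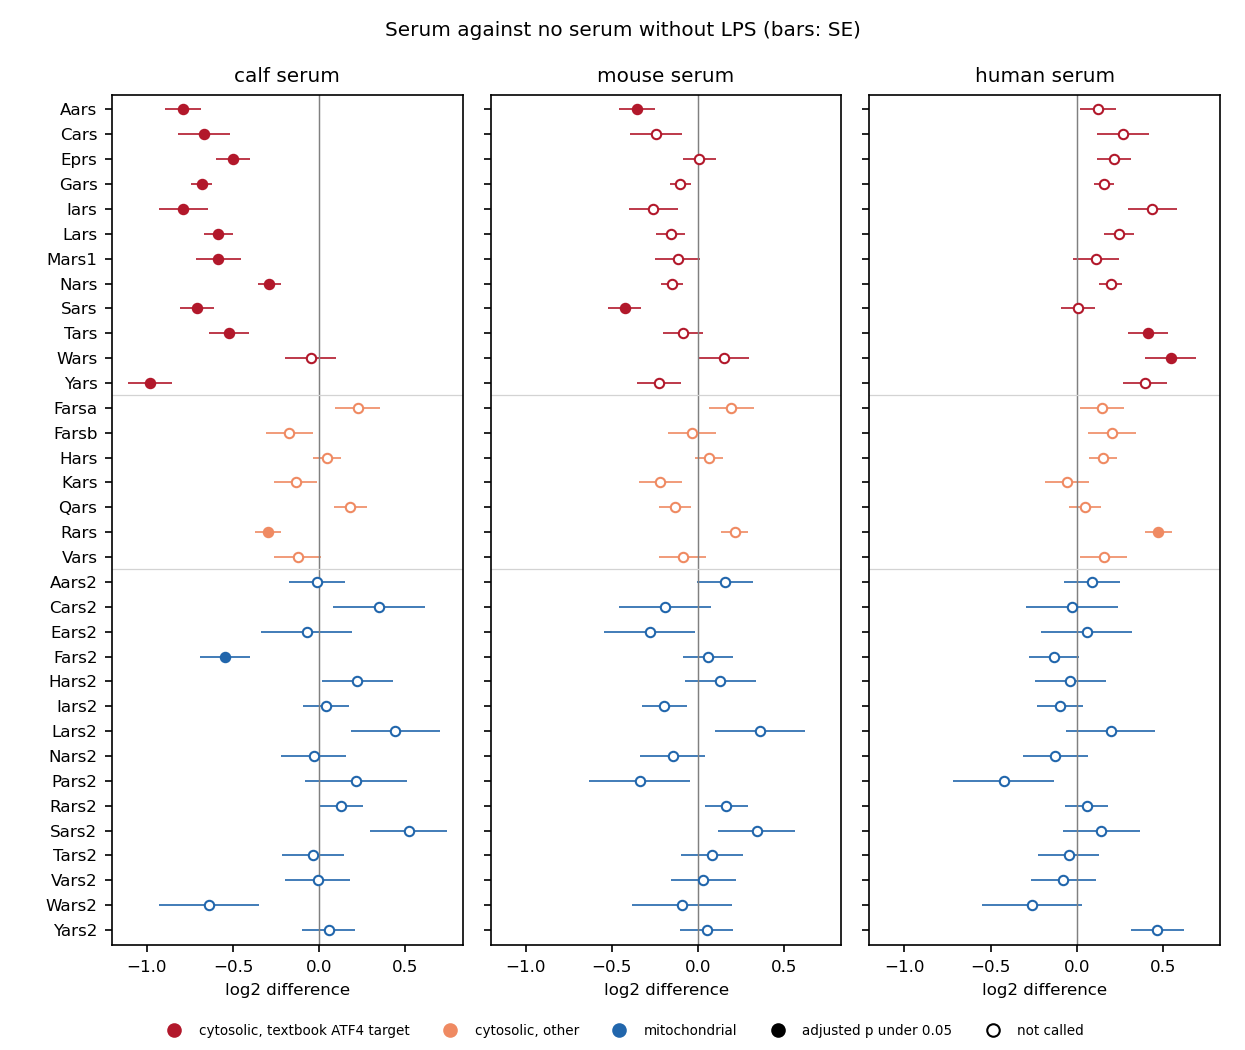
Log2 difference between each serum and no serum without LPS for the 34 tested members (x axis; bars are standard errors, 3 arrays per group), with filled points for adjusted p under 0.05. In calf serum 12 red and orange cytosolic points are filled and lie left of 0, while among the blue mitochondrial points 1, Fars2, is filled.

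In mouse serum without LPS the same members lay closer to the no-serum level. Sars, at 11.52, 11.57 and 11.63, was lower than in no serum by 0.43 (-0.43 ± 0.10, adjusted p = 0.0046, limma), and Aars, at 11.33, 10.98 and 11.08, by 0.35 (-0.35 ± 0.10, adjusted p = 0.031). These were the 2 cytosolic members called, both lower, against 5.34% of all genes lower and 4.47% higher. The cytosolic median was -0.12 against -0.03 for all genes. Both calls rest on few arrays: with the mouse or no-serum array of experiment H or I left out 1 was called, and without experiment H 0.

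In human serum without LPS cytosolic members tended upwards, with 18 of 19 differences above 0 and a median of 0.20 against -0.03 for all genes. Rars, for arginine, stood at 11.85, 11.74 and 11.64 against 11.08, 11.38 and 11.35 in no serum (0.47 ± 0.08, adjusted p = 0.00022, limma). Wars stood at 9.78, 9.34 and 9.07 against 8.74, 9.0 and 8.82 (0.54 ± 0.15, adjusted p = 0.017), and Tars at 11.31, 11.13 and 11.03 against 10.74, 10.81 and 10.68 (0.41 ± 0.12, adjusted p = 0.025). These 3 of 19 were higher and 0 lower, against 4.73% of all genes higher and 5.69% lower. With the experiment as a block 6 were higher, the added ones being Iars (0.44, adjusted p = 0.051 without and 0.035 with the block), Yars (0.39, 0.051 and 0.02) and Nars (0.20, 0.057 and 0.036). Without the human serum array of experiment G 1 was called, Rars. The 3 other probe sets of Wars had differences of 0.04, 0.12 and 0.14 here and no call.

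Set directly against each other, the sera gave the order human, mouse, calf for many cytosolic members. Human serum exceeded calf serum in 13 of 19 (7.1% of all genes higher, 7.59% lower, median 0.72 against -0.03), and these 13 were the 12 textbook ATF4 targets and Rars. Yars stood at 9.06, 8.97 and 8.97 in human serum, which is 1.38 ± 0.13 above calf serum (2.60-fold, adjusted p = 4.8e-08, limma). Iars, at 11.15, 11.18 and 11.44, was higher by 1.23 ± 0.14 (adjusted p = 1.3e-06). Each of the 13 was higher in all 3 experiments with groups that did not overlap, and Wars alone lost its call on leaving out a single array. The call of Wars is that of its chosen probe set, and its other probe sets had no call in human serum against no serum. Mouse serum exceeded calf serum in 9 members, with Qars lower (5.07% of all genes higher, 4.57% lower); Yars was higher by 0.76 ± 0.13 (adjusted p = 0.00021) and Gars by 0.58 ± 0.06 (adjusted p = 2.7e-07). Without experiment I 4 of these 10 were called and without experiment G 6. Human serum exceeded mouse serum in 9 members (2.69% of all genes higher, 2.56% lower), all of them textbook ATF4 targets, with Iars higher by 0.70 ± 0.14 (adjusted p = 0.0031). Without the human serum array of experiment G this count was 4, without experiment G on all groups 3, and without experiment I 2.

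**Figure D2:**
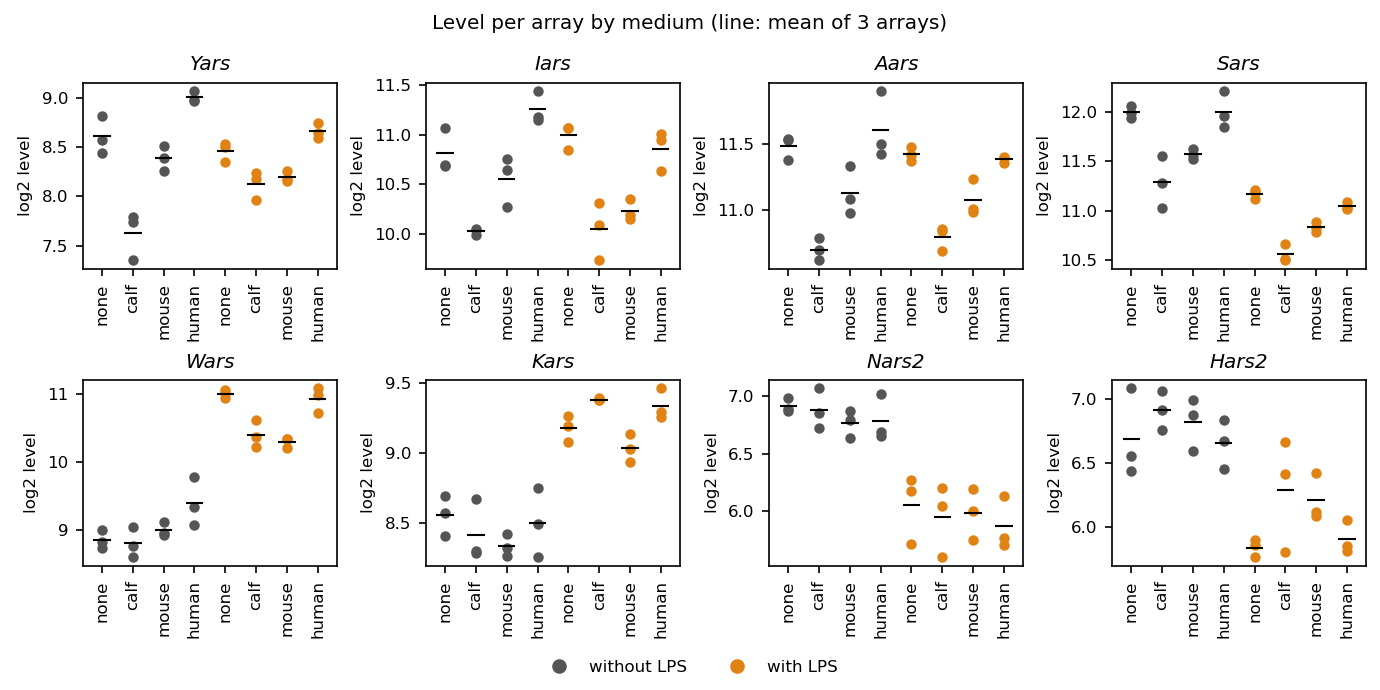
Log2 level of 8 members on each array (points) by medium, grey without LPS and orange with LPS, lines marking the mean of 3 arrays; each panel has its own scale. Yars, Iars and Aars are lowest in calf serum without LPS or with it, Sars falls with LPS in every medium, Wars and Kars rise with LPS, and Nars2 and Hars2 fall.

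The order among the sera was also present with LPS, and calf serum stayed the lowest for most of the ATF4 targets. Against no serum with LPS, 12 cytosolic members were lower in calf serum and 1, Farsa, was higher (5.85% of all genes lower, 5% higher, median -0.59 against 0.03). Iars stood at 11.07, 10.85 and 11.07 in no serum and 10.09, 9.74 and 10.31 in calf serum (-0.95 ± 0.14, adjusted p = 7.8e-05, limma). Eprs stood at 11.28, 11.24 and 11.07 against 10.47, 9.99 and 10.44 (-0.89 ± 0.10, adjusted p = 1.1e-06). Neither gene had overlapping groups. Lars (-0.74), Mars1 (-0.70), Aars (-0.63), Sars (-0.62), Gars (-0.61), Wars (-0.60), Tars (-0.60), Cars (-0.59), Farsb (-0.52) and Nars (-0.39) were also lower. Wars had no call between these media without LPS and stood at 10.62, 10.22 and 10.36 in calf serum with LPS against 11.07, 11.01 and 10.94 in no serum with LPS (adjusted p = 0.0082), a call lost without the calf array of experiment H. Farsb had overlapping groups and lost its call without the calf array of experiment G or H or the no-serum array of I. Yars, lowest of all in the resting comparison, had a difference of -0.34 ± 0.13 here (adjusted p = 0.1, and 0.049 with the experiment as a block).

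Mouse serum with LPS was lower than no serum with LPS in 9 of 19 cytosolic members (6.58% of all genes lower, 6.82% higher, median -0.30 against 0.02), all of them textbook ATF4 targets. Iars was lower by 0.76 (-0.76 ± 0.14, adjusted p = 0.00063, limma), Wars by 0.70 (-0.70 ± 0.15, adjusted p = 0.0018) and Eprs by 0.57 (-0.57 ± 0.10, adjusted p = 0.00023). Without experiment H on all groups 4 of the 9 were called and without experiment I 5. In human serum with LPS 0 of 19 cytosolic and 0 of 15 mitochondrial members were called in limma against no serum with LPS (2.6% of all genes higher, 2.64% lower). At an unadjusted p under 0.05 the counts were 1 and 2. Human serum exceeded calf serum with LPS in 13 members (3.67% of all genes higher, 2.6% lower), again the 12 textbook ATF4 targets and Rars, from Rars at 0.27 ± 0.08 to Iars at 0.82 ± 0.14, and this count was 7 without experiment H and 8 without G or I. Human serum exceeded mouse serum in 4, Wars (0.63), Iars (0.63), Gars (0.30) and Nars (0.25), against 1.1% of all genes higher and 1.29% lower. Mouse serum exceeded calf serum in 2, Lars (0.38) and Gars (0.26), against 3.19% higher and 2.23% lower. The last 2 counts rest on few arrays: the first was 1 without the human array of experiment G or the mouse array of H or I and 2 without the human array of H or I, the first was also 0 without experiment G or I on all groups, and the second was 0 without the calf array of H and 4 without that of I.

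Between the media, 0.696% to 7.59% of all genes were called in a given direction. At counts near these shares, few mitochondrial synthetases were called. Their spread within groups was wider than that of the cytosolic members (median SD 0.19 against 0.10). The widest difference without a call was that of Pars2 between human and mouse serum with LPS (mean log2 levels 4.04 and 5.12). The lower of these levels lies under the filter level of 5.08. Apart from Pars2, differences without a call reached 0.73 for Lars2, the leucyl enzyme, in human serum against no serum with LPS (adjusted p = 0.13 in limma, and 0.046 with the experiment as a block). Fars2, the mitochondrial phenylalanyl enzyme, was lower in calf serum than in no serum without LPS (8.27, 8.38 and 8.24 against 8.98, 8.78 and 8.78; -0.55 ± 0.14, adjusted p = 0.035, limma) and higher in mouse than in calf serum (0.61 ± 0.14, adjusted p = 0.0064). The first call was lost whenever any of the 6 arrays was left out, and the second without experiment H or I. The other Fars2 probe set, of similar brightness (mean log2 level 8.29 against 8.49), had 0.17 and 0.26 in these comparisons and no call, so the direction in calf serum differs between the probe sets. Rars2, for mitochondrial arginine, was higher in mouse serum with LPS (8.89, 8.92 and 8.86) than in no serum with LPS (8.17, 8.25 and 8.40), by 0.62 ± 0.12 (adjusted p = 0.0014). Human serum with LPS had Rars2 levels of 8.06, 8.25 and 8.06, lower than mouse serum by 0.76 (-0.76 ± 0.12, adjusted p = 0.0015) and than calf serum by 0.48 (-0.48 ± 0.12, adjusted p = 0.02). The second of these was lost without the calf or human array of experiment G or the human array of I. In the other comparisons of a serum with no serum, 0 mitochondrial members were called in limma, with counts at an unadjusted p under 0.05 of 0 for mouse serum and 1 for human serum without LPS and 3 for calf serum with LPS. Among the sera 0 were called for human against calf and human against mouse without LPS and for mouse against calf with LPS, with 3, 1 and 1 at an unadjusted p under 0.05. Yars2, at 9.60, 9.33 and 9.14 in human serum and 9.04, 8.76 and 8.88 in no serum, had an adjusted p of 0.057, and 0.04 with the experiment as a block.

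As among all genes, some cytosolic synthetases rose with LPS and others fell. In no serum 4 of 19 rose and 3 fell, in calf serum 5 rose and 7 fell, in mouse serum 4 rose and 10 fell, and in human serum 3 rose and 11 fell. Among all genes 19.8%, 20.8%, 17.8% and 18.4% rose and 39.1%, 37.8%, 33.8% and 35.5% fell. The cytosolic shares that rose lie near those of all genes in each medium, as does the share that fell in calf serum. The share that fell was below that of all genes in no serum and above it in mouse and human serum. The medians of the cytosolic members were -0.02, 0.02, -0.22 and -0.34, and those of all genes -0.19, -0.17, -0.15 and -0.16. The count in mouse serum, 14 in all, became 9 without experiment G or without experiment H.

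Wars, the tryptophanyl enzyme, had the greatest rise in each medium. It stood at 8.74, 9.0 and 8.82 in no serum and 11.07, 11.01 and 10.94 with LPS, a rise of 2.15 ± 0.15 (4.45-fold, adjusted p = 1.4e-11, limma). It rose by 1.60 ± 0.15 in calf serum, by 1.30 ± 0.15 in mouse serum and by 1.54 ± 0.15 in human serum, and the arrays with LPS lay above those without in every medium. Other probe sets of Wars gave rises of like size. Kars, the lysyl enzyme of the complex, rose from 8.30, 8.67 and 8.29 to 9.37, 9.38 and 9.39 in calf serum (0.96 ± 0.13, adjusted p = 8.4e-07) and by 0.62, 0.69 and 0.84 in no serum, mouse and human serum. Rars rose by 0.42 ± 0.08 in no serum, 0.59 ± 0.08 in calf serum and 0.19 ± 0.08 in mouse serum (adjusted p = 0.044, lost on leaving out any array of these groups other than the untreated array of H), and had 0.08 ± 0.08 in human serum.

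Farsa and Farsb encode the alpha and beta subunits of the cytosolic phenylalanyl enzyme, and their values differed in sign. The chosen probe set of Farsa rose in all 4 media, by 0.48, 0.73, 0.43 and 0.49 in no serum, calf, mouse and human serum. With the mean of all its probe sets Farsa had differences of -0.03 in no serum and -0.14 in human serum, so its direction depends on the probe sets used. The other probe sets of Farsa were dimmer (mean log2 levels 4.86, 5.23 and 6.36 against 8.43) and had no call with LPS in any medium. Farsb fell by 0.59 in calf serum (-0.59 ± 0.14, adjusted p = 0.00087, limma) and had -0.41 in mouse serum and -0.63 in human serum, both called, and -0.24 in no serum, which was called only with the experiment as a block (adjusted p = 0.048).

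**Figure D3:**
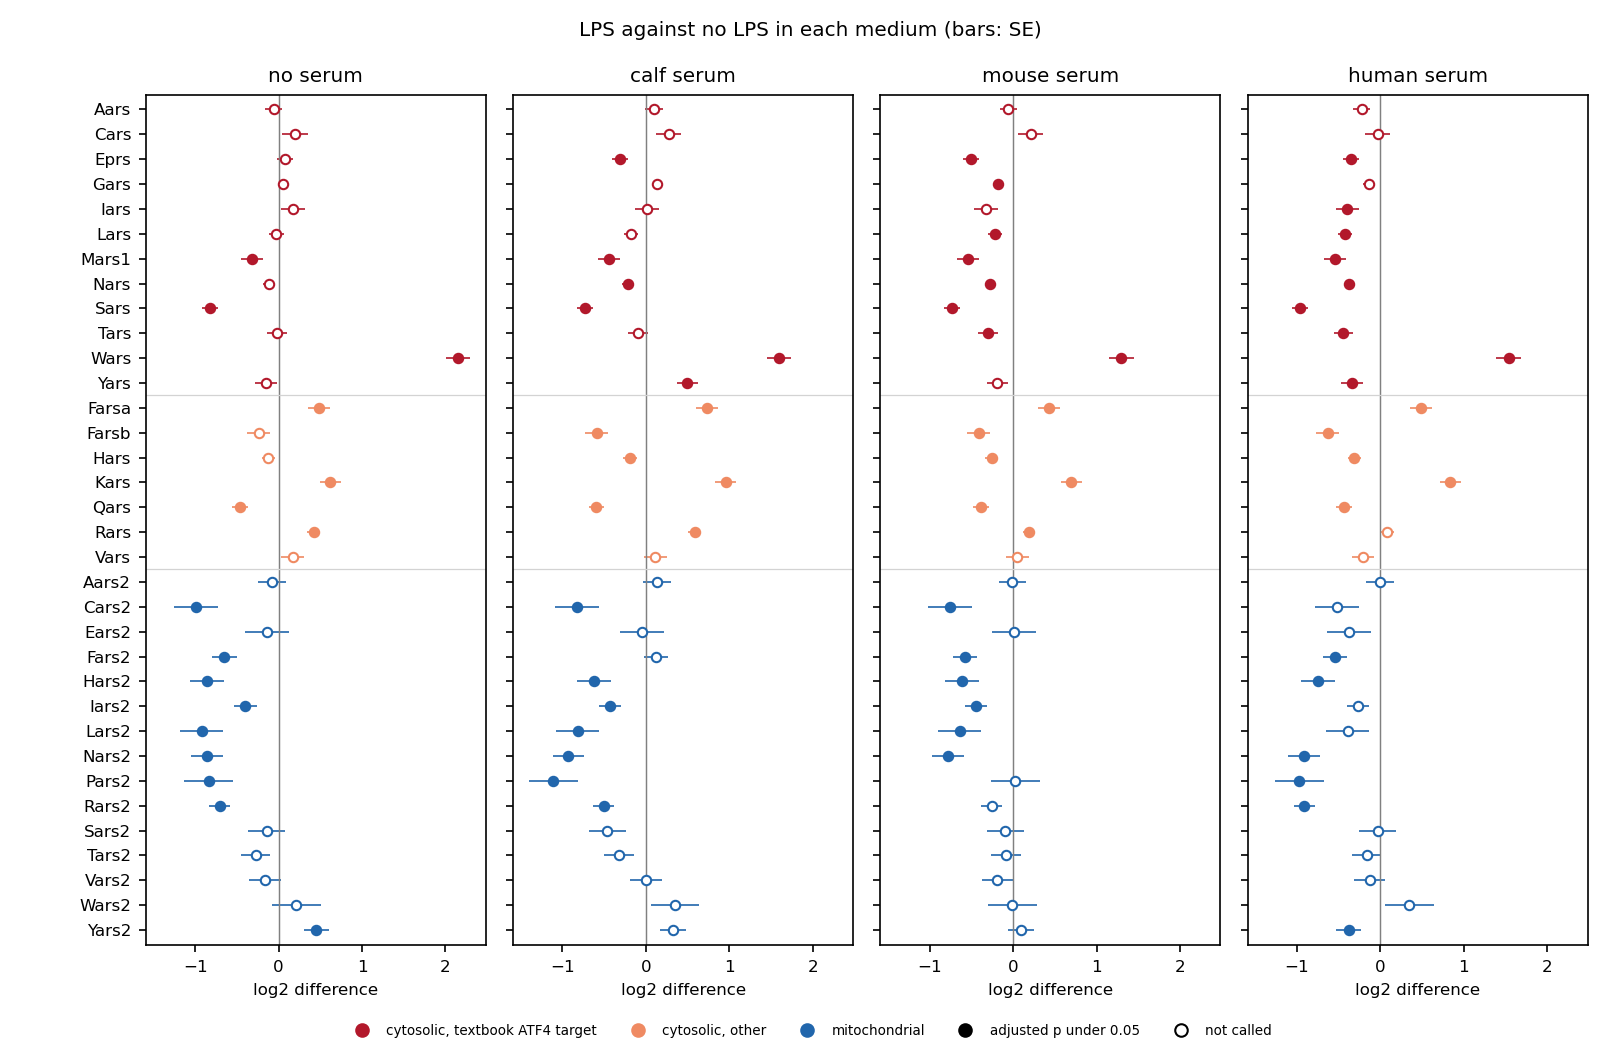
Log2 difference between LPS and no LPS in each medium for the 34 tested members (x axis; bars are standard errors, 3 arrays per group), with filled points for adjusted p under 0.05. Wars, Kars and Farsa are filled and right of 0 in all 4 panels, Sars, Mars1 and Qars are filled and left of 0 in all 4, and the filled blue mitochondrial points lie left of 0 except Yars2 in no serum.

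The 3 cytosolic enzymes Sars, Qars and Mars1 fell with LPS in all 4 media. Sars, the seryl enzyme, fell from 12.21, 11.96 and 11.85 to 11.09, 11.03 and 11.02 in human serum (-0.96 ± 0.10, adjusted p = 1.7e-08, limma), and had -0.82, -0.73 and -0.74 in no serum, calf and mouse serum. Qars, the glutaminyl enzyme, had -0.47, -0.59, -0.39 and -0.44 in no serum, calf, mouse and human serum, with adjusted p of 0.0015 or less. Mars1, the methionyl enzyme, had -0.32, -0.44, -0.54 and -0.54. Its call in no serum (adjusted p = 0.038) was lost without any of the LPS arrays or the untreated array of H or I, and that in calf serum without the LPS array of H, which at 9.62 lay below the 10.20 and 10.41 of the others. Sars fell from a calf serum level of 11.29, 11.55 and 11.03 that was already below no serum, and reached 10.50, 10.66 and 10.51.

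Eprs, Nars, Hars and Farsb fell in 3 media each, those with serum. Eprs had -0.31, -0.50 and -0.36 in calf, mouse and human serum and 0.08 ± 0.10 in no serum. Nars, for asparagine, had -0.22, -0.28 and -0.37, and Hars, for histidine, -0.19, -0.26 and -0.31. Lars and Tars fell in mouse serum (-0.22 and -0.30) and human serum (-0.42 and -0.44). Iars and Yars fell in human serum (-0.40 and -0.34, adjusted p = 0.023 and 0.028). Iars and had -0.33 in mouse serum (adjusted p = 0.06, and 0.046 with the experiment as a block), and Gars fell in mouse serum (-0.18). Several of these calls rest on single arrays: Eprs and Hars in calf serum, Lars, Tars, Hars and Farsb in mouse serum, and Iars and Yars in human serum lost theirs when 1 array of the compared groups was left out. Aars, Cars and Vars were not called in any medium, and with the experiment as a block Cars was called in calf serum (0.27, adjusted p = 0.047).

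With LPS the calls among mitochondrial synthetases were mostly falls, as they were among all genes. In no serum 8 of 15 fell and 1 rose, in calf serum 7 fell, and in mouse and human serum 6 fell, with 0 rising, beside 39.1%, 37.8%, 33.8% and 35.5% of all genes that fell and 19.8%, 20.8%, 17.8% and 18.4% that rose. The shares in mouse and human serum lie near those of all genes. The medians were -0.40, -0.43, -0.19 and -0.38, against -0.19, -0.17, -0.15 and -0.16 for all genes.

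Nars2, the mitochondrial asparaginyl enzyme, fell from 6.89, 6.98 and 6.87 to 5.72, 6.18 and 6.27 in no serum (-0.86 ± 0.19, adjusted p = 0.00047, limma) and had -0.93, -0.78 and -0.92 in calf, mouse and human serum. Hars2, for mitochondrial histidine, fell from 6.55, 7.08 and 6.44 to 5.89, 5.85 and 5.76 in no serum (-0.85 ± 0.20, adjusted p = 0.001) and had -0.62, -0.62 and -0.75 in the sera. These were the members called in all 4 media with their chosen probe sets. In both, the arrays with LPS lay below those without in every medium. The other Hars2 probe set, of similar brightness (mean log2 level 6.25 against 6.41), had -0.47, -0.04, 0.15 and -0.36 in no serum, calf, mouse and human serum and no call. The Hars2 call was lost without the LPS array of experiment G or the untreated array of H in calf serum, and likewise in mouse serum.

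Rars2 fell by 0.71 in no serum (-0.71 ± 0.12, adjusted p = 4e-05, limma), by 0.50 in calf serum and by 0.91 in human serum (adjusted p = 1.6e-06), and had -0.26 in mouse serum (adjusted p = 0.091). Cars2, for cysteine, had -0.99, -0.83 and -0.76 in no serum, calf and mouse serum, Lars2, for leucine, -0.92, -0.82 and -0.64, and Iars2, for isoleucine, -0.40, -0.43 and -0.44. Pars2, for proline, was called lower in no serum, calf and human serum, where its mean log2 levels with LPS of 4.59, 4.53 and 4.04 lay below the filter level of 5.08, so no size is given for these falls. Fars2 had -0.65, -0.58 and -0.54 in no serum, mouse and human serum and 0.12 ± 0.14 in calf serum, while its other probe set had no call in any medium. Yars2 differed in sign between media: it rose in no serum (0.45 ± 0.15, adjusted p = 0.015) and fell in human serum (-0.38 ± 0.15, adjusted p = 0.042), and neither call held with the mean of its probe sets. Aars2, Ears2, Sars2, Tars2, Vars2 and Wars2 were not called in any medium with their chosen probe sets. The count in mouse serum was 3 without the untreated array of experiment G or the LPS array of I.

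The size of the LPS response was compared between media. Among the members called, Yars gave the greatest contrast between sera: it rose with LPS in calf serum (0.50 ± 0.13), fell in human serum (-0.34 ± 0.13) and had -0.19 ± 0.13 in mouse serum. The response in human serum less that in calf serum was -0.84 ± 0.18 (adjusted p = 0.0066, limma) and that in mouse serum less calf serum -0.69 ± 0.18 (adjusted p = 0.032). Rars rose less in human and mouse serum than in calf serum, by -0.50 ± 0.11 (adjusted p = 0.0072) and -0.40 ± 0.11 (adjusted p = 0.045). Each of these differences kept its sign in every experiment.

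Against the response in no serum, Wars rose less in mouse serum (-0.85 ± 0.21, adjusted p = 0.012, limma), with -0.55 ± 0.21 in calf serum (adjusted p = 0.21) and -0.62 ± 0.21 in human serum (adjusted p = 0.095, and 0.03 with the experiment as a block). Eprs responded lower in mouse serum (-0.58 ± 0.14, adjusted p = 0.0097), as did the mitochondrial Yars2 in human serum (-0.83 ± 0.22, adjusted p = 0.025). Gars responded lower in mouse than in calf serum (-0.32 ± 0.09, adjusted p = 0.037). Called were 2 cytosolic members for mouse less no serum, against 6.46% of all genes, 3 for mouse less calf serum, against 3.78%, and 2 for human less calf serum, against 4.6%. For calf less no serum 0 of the 34 were called in limma (1.8% of all genes, with Yars at 0.65 and Fars2 at 0.77 called only with the experiment as a block, adjusted p = 0.026 and 0.038), for human less no serum 1 (4.96%) and for human less mouse serum 0 (0.628%). All these counts rest on few arrays. The calls of Yars and Rars for human less calf serum and of Eprs for mouse less no serum held on leaving out any single array and were lost on leaving out any whole experiment. Wars lost its call without experiment H or I. Those of Gars, Rars and Yars for mouse less calf serum and of Yars2 were lost on leaving out single arrays. That of Yars2 was also lost with the mean of its probe sets.

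The compartments were set side by side within each array. For every array the median over members of the log2 deviation from the gene's 24-array mean was taken, and the mitochondrial median was subtracted from the cytosolic one. In calf serum without LPS this gap was -0.70, -0.54 and -0.62 in experiments G, H and I (-0.62 ± 0.08 SD, n = 3), the lowest of the 8 groups, and no array of another group came as low. It was -0.01 ± 0.16 in no serum, -0.09 ± 0.12 in mouse serum and 0.18 ± 0.14 in human serum without LPS, with overlapping arrays. With LPS it was 0.38 ± 0.09 in no serum, -0.23 ± 0.06 in calf serum, -0.05 ± 0.06 in mouse serum and 0.33 ± 0.04 in human serum. The medians of all genes moved by far less, from 0.09 in calf serum without LPS to -0.08 in no serum with LPS. Within the cytosolic set the gap between textbook ATF4 targets and the other members was below 0 in calf serum on all arrays, with and without LPS (-0.28 ± 0.06 and -0.42 ± 0.17), and in mouse serum with LPS (-0.19 ± 0.11), and above 0 on all arrays in human serum (0.29 ± 0.10 and 0.19 ± 0.05) and, without LPS, in no serum (0.27 ± 0.07) and mouse serum (0.11 ± 0.09). In no serum with LPS it was 0.13 ± 0.16.

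**Figure D4:**
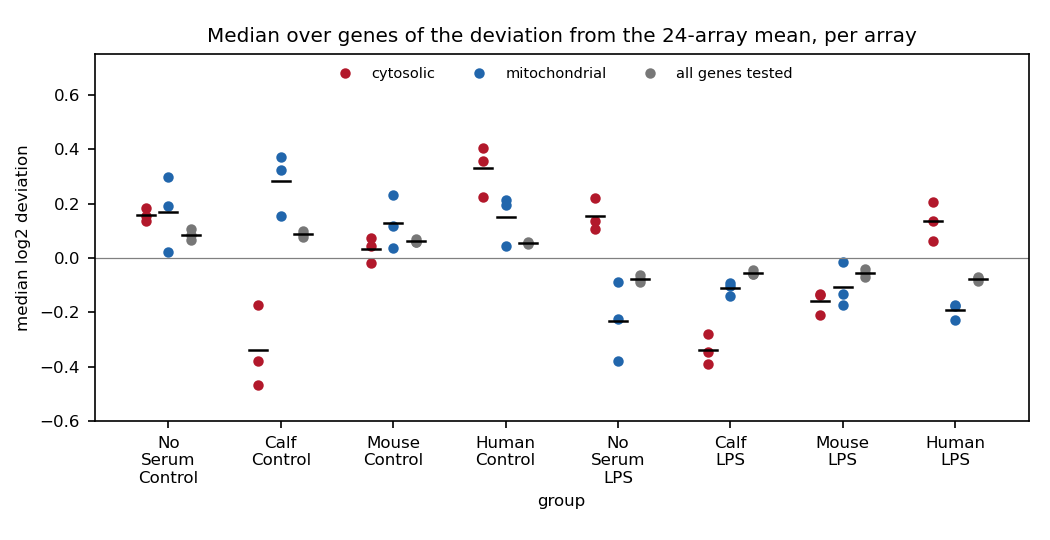
Median log2 deviation from the 24-array mean on each array (points) for cytosolic members, mitochondrial members and all genes tested, by group, lines marking the mean of 3 arrays. In calf serum the cytosolic points lie below 0 and below the mitochondrial ones, and with LPS the mitochondrial points lie below 0 in all media.

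Members varied over the groups by different amounts. The range of the 8 group means had a median of 0.97 over the cytosolic members and 0.73 over the mitochondrial ones, beside a median SD within groups of 0.10 and 0.19. Leaving aside Pars2, whose low groups lie under the filter level, Wars had the widest range (2.20), then Sars (1.45) and Yars (1.38), and Aars2 (0.24), Vars2 (0.24) and Vars (0.29) the narrowest. Of the 19 cytosolic members 15 had their lowest mean in a calf serum group and 14 their highest in a human serum group. Of the 15 mitochondrial members 13 had their lowest mean in a group with LPS and 14 their highest in a group without. The mean of Pars2 over the 24 arrays, 4.93, lay below the filter level of 5.08, which it passed on enough arrays.

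**Figure D5:**
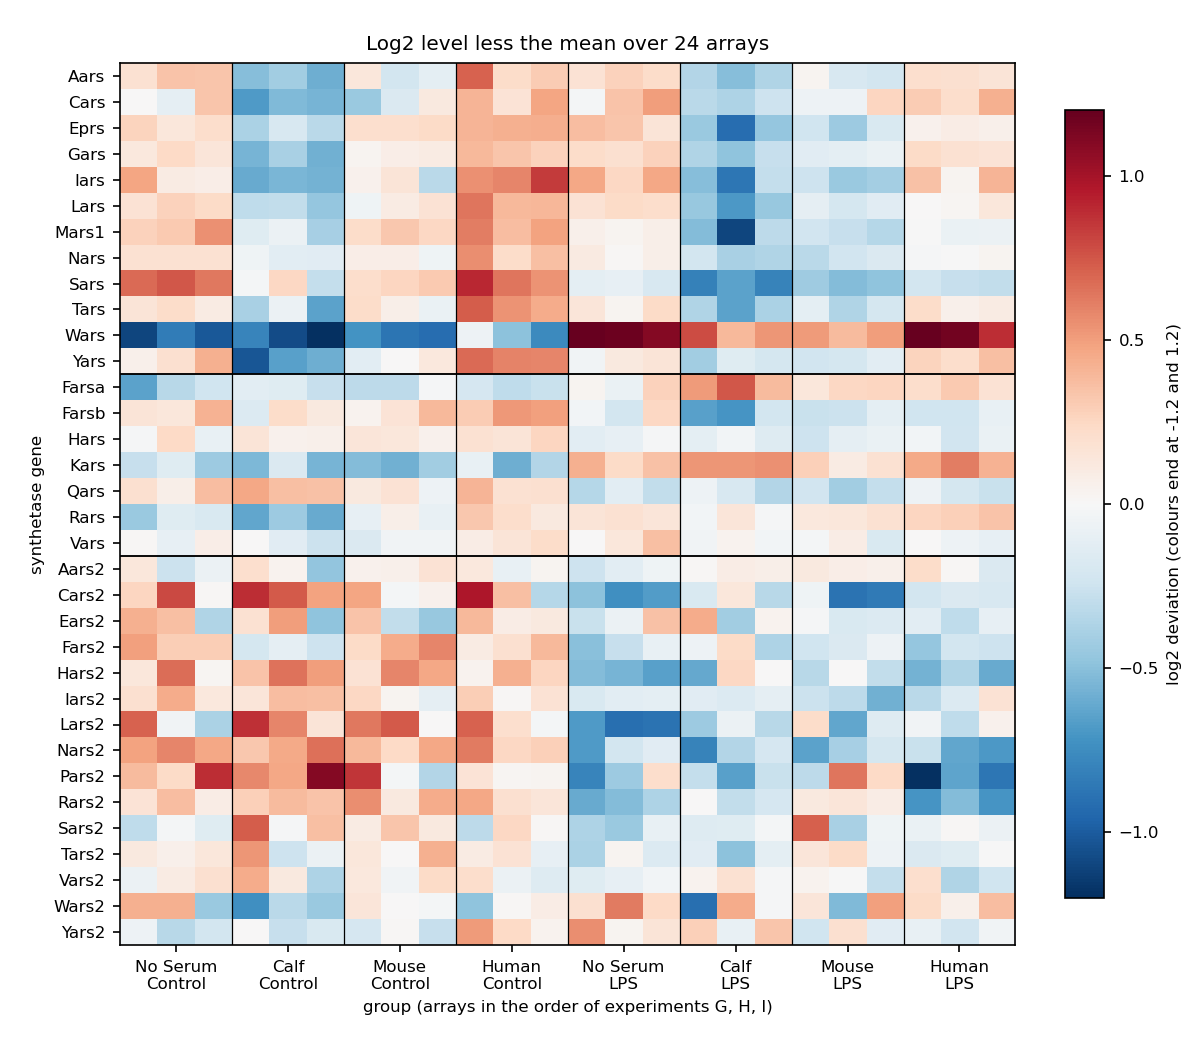
Log2 level of each tested member on each array less its mean over the 24 arrays (colour; columns are arrays in the order of experiments G, H and I within each group, rows are members). Apart from Wars, the ATF4 targets at the top are mostly blue in the calf serum columns and red in human serum without LPS. Wars passes from blue to red with LPS, and most mitochondrial rows pass from red to blue with LPS.

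Genes that work beside the synthetases were examined from lists written from general knowledge, with earlier results of these data known. The counts over these lists are therefore not independent support for a pattern. Of 28 tested textbook ATF4 targets that are not synthetases, 25 were lower in calf serum than in no serum without LPS and 0 were higher (median -0.98), against 2.27% and 0.696% of all genes. In mouse serum 5 were lower and 1 higher, against 5.34% and 4.47%, and in human serum 7 were higher and 0 lower, against 4.73% and 5.69%. All 28 were higher in human than in calf serum (median 1.35), against 7.1% of all genes. Slc1a4, a transporter of neutral amino acids, differed in calf serum by -2.29 on the log2 scale (SE 0.26, adjusted p = 4.8e-06, limma). Chac1, which degrades glutathione, was called lower there as well (adjusted p = 6.7e-05, limma). Its mean log2 level in calf serum, 4.97, lay below the filter level, so no size is given for this difference. With LPS 22 were lower in calf serum, 14 in mouse serum and 2 in human serum, against 5.85%, 6.58% and 2.64% of all genes. The LPS response itself was mixed, since in no serum 12 rose and 2 fell, in calf serum 12 and 4, in mouse serum 3 and 8, and in human serum 3 and 12, beside 17.8% to 20.8% of all genes that rose and 33.8% to 39.1% that fell. Ppp1r15b, a subunit that directs a phosphatase to eIF2, was lower in calf serum by 0.42 (-0.42 ± 0.06, adjusted p = 0.00017), and the other 4 tested genes of eIF2 kinases and phosphatase subunits had no call there.

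Of the 3 scaffold genes of the complex 0 were called in limma in calf serum without LPS (1 at an unadjusted p under 0.05), with a median difference of -0.19. Of all genes 2.27% were lower there and 0.696% higher, so a count of 0 lies near these shares. Eef1e1 rose with LPS in no serum (0.61 ± 0.12, adjusted p = 0.00013) and calf serum (0.62 ± 0.12), while Aimp1 fell in all 4 media, by 0.40 in no serum (-0.40 ± 0.07, adjusted p = 3.9e-05). Aimp2 fell in no serum, mouse and human serum (-0.54, -0.68 and -0.52, adjusted p = 0.0016, 0.00019 and 0.0023, limma). Of all genes 33.8% to 39.1% fell with LPS and 17.8% to 20.8% rose. The 4 tested cytosolic elongation factors act in the steps that bring charged tRNAs to the ribosome or move it. For any serum against no serum without LPS they had 0 calls in limma, with 0 at an unadjusted p under 0.05. With 4 genes this lies near the shares of all genes called, 0.696% to 5.69% in a given direction. With LPS 3 of 4 fell in each medium, beside 33.8% to 39.1% of all genes. Some of these falls were small: Eef1a1 had -0.08 in human serum, with the same sign in 2 of the 3 experiments. Of 19 factors of mitochondrial translation and tRNA processing, 12, 8, 12 and 11 fell with LPS in no serum, calf, mouse and human serum and 2, 1, 2 and 1 rose, beside 39.1%, 37.8%, 33.8% and 35.5% of all genes that fell. The count in calf serum lies near the share of all genes. Gatc and Qrsl1, subunits of the enzyme that makes mitochondrial glutaminyl-tRNA, fell in all 4, in no serum by 0.95 (-0.95 ± 0.27, adjusted p = 0.0049) and 1.10 (-1.10 ± 0.36, adjusted p = 0.013). For the sera against no serum without LPS 0 of these 19 were called in limma, with 1, 0 and 1 at an unadjusted p under 0.05 in calf, mouse and human serum. The count of 0 calls also lies near the shares of all genes given for these comparisons. Prorsd1, a trans-editing enzyme relative of the prolyl synthetase, fell with LPS in all 4 media, by 2.27 in calf serum (-2.27 ± 0.18, adjusted p = 1.8e-10).

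The choice of probe set was checked on the 28 other kept probe sets of 19 members. These gave 157 results in comparisons where the chosen probe set was called. The other probe set was called in the same direction in 84, in the opposite direction in 0, and had no call in 73. A call of a gene with several other probe sets, such as Wars, is counted once for each of them. Vars2 was not called in any medium with its chosen probe set, while a dimmer one fell with LPS in no serum (-1.04 ± 0.28, adjusted p = 0.0033 over all probe sets, limma). The names of 6 chosen probe sets mark possible cross-hybridisation, those of Aars and Eprs among them.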

How the data were processed

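RNA of 24 samples was hybridised to Affymetrix mouse arrays, 1 array per sample. The authors deposited 1 value per probe set on a log2 scale, made with GCRMA and Partek per the submitters' processing notes; base 2 is an inference from the range of values, 1.48 to 14.84, and the step that made each value is otherwise not given in the sources used here. GCRMA normalizes the arrays together, which can hide a shift shared by all genes, and compresses dim probe sets.

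Of 45101 probe sets, 64 controls were left out, 34945 name 1 gene, 932 several and 9160 none in the platform annotation. A gene was represented by its probe set with the highest mean over the 24 arrays, and was kept where at least 3 arrays exceeded the median of all values, 5.08, leaving 11785 genes. Members and lists were chosen with earlier results of these data known. limma 3.58.1 (R 4.3.3; lmFit, eBayes with trend and robust) fitted 1 mean per group on all arrays, and p was adjusted by Benjamini-Hochberg over all genes in each of 22 comparisons, two-sided, at a threshold of 0.05; 3 of them, the differences in LPS response between sera, were added after the data were seen. The script was tested on simulated data. Any member could be named; full statistics were for members called with the same sign in all experiments, by size and at most 10 per comparison, and for at most 4 called genes of a context list, of largest size. Members without a call, named for contrast, and the left-out arrays beside calls were chosen after their values were seen.

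The labels give each array an experiment letter, G, H or I, which pairs arrays across groups; deviations from the group means of same-letter arrays correlated at a median r of 0.062 (-0.046 to 0.183 over 84 pairs), against -0.035 for arrays of different letters. The labels do not say that experiments used separate mice, so p-values measure the spread between experiments, which may be technical. The batch mark in the labels follows the experiment except on 1 array, the untreated calf serum array of experiment H. The number of arrays limits the precision. Alternatives were quantile normalization, median centring, other filters, the experiment or batch as a block, plain eBayes, the mean of a gene's probe sets, no s_at or x_at probe sets, and each array or experiment left out.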

Additional observations from a re-analysis of the deposited data

Results flagged for a closer look

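In 8 cases the LPS response of a member differed between media by a test of the difference itself, from limma with p adjusted over all genes. Wars rose less in mouse serum than in no serum (-0.85, adjusted p = 0.012), and Eprs responded lower there as well (-0.58, adjusted p = 0.0097). Yars2 responded lower in human serum than in no serum (-0.83, adjusted p = 0.025). This call of Yars2 was lost with the mean of its probe sets and without s_at and x_at probe sets. Against calf serum, the response in human serum was lower for Yars (-0.84, adjusted p = 0.0066) and Rars (-0.50, adjusted p = 0.0072). Against calf serum, the response in mouse serum was lower for Yars (-0.69, adjusted p = 0.032), Rars (-0.40, adjusted p = 0.045) and Gars (-0.32, adjusted p = 0.037). The comparisons with calf serum were added after the data were seen. Of the 34 members tested, 2 were called for mouse less no serum, 1 for human less no serum, 2 for human less calf and 3 for mouse less calf, against 6.46%, 4.96%, 4.6% and 3.78% of all genes, and the first 3 of these counts lie near the share of all genes.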

How the results depend on the processing

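Of 178 calls over the members and 22 comparisons, 83 were kept under every alternative and left-out array or experiment, 95 were lost under at least 1, and 2 changed sign under at least 1; of 570 values without a call, 58 were called under at least 1. The causes were not tested. With the mean of all probe sets of a gene, the LPS response turned to -0.032 in no serum and -0.14 in human serum for Farsa and to -0.49 in calf serum for Vars2.

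With the experiment as a replicate block, all 178 calls were kept among 205. Counts that moved by over 1.5 times under the block were the cytosolic members called for human against no serum without LPS (6 in place of 3), for the LPS response in calf less no serum (1 in place of 0) and in human less no serum (2 in place of 0), and the mitochondrial ones for mouse and human against no serum with LPS (2 in place of 1, and 1 in place of 0), human against mouse with LPS (2 in place of 1), and, each 1 in place of 0, human against no serum and human against calf without LPS and the response in calf less no serum, mouse less calf and human less calf. The array batch as a block gave the same moved counts for human against no serum (6 and 1), human against calf (1), the LPS groups (2, 1 and 2), human less no serum (2) and human less calf (1), and 0 in place of 1 mitochondrial member for calf against no serum without LPS. The block moved no other count of calls this far.

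With quantile normalization the mitochondrial count for the LPS response in mouse serum was 3 in place of 6, the cytosolic count for mouse less calf 1 in place of 3, the mitochondrial count for human against mouse with LPS 2 in place of 1, and 1 in place of 0 for cytosolic and mitochondrial members in calf less no serum and for mitochondrial members in human against no serum and human against calf without LPS; the compartment gap in human serum with LPS was 0.21 in place of 0.33. With no filter on dim probe sets, 0 mitochondrial members were called for calf against no serum without LPS and 0 cytosolic ones for mouse less calf. The stricter filter gave 6 cytosolic and 1 mitochondrial members for human against no serum and 1 mitochondrial member for calf less no serum. Plain eBayes gave 1 cytosolic member for mouse against no serum without LPS and 1 for mouse less calf. The mean of probe sets gave 7 cytosolic and 1 mitochondrial members for human against no serum, 0 mitochondrial ones for calf against no serum, 1 for calf against no serum with LPS, 1 for human against calf without LPS, 1 cytosolic member for calf less no serum, and 3 cytosolic and 0 mitochondrial ones for human less no serum. Without s_at and x_at probe sets, 1 cytosolic member was called for mouse against no serum, and 1 cytosolic and 0 mitochondrial ones for human less no serum. No alternative scaling moved the median of all genes by over 0.1.

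With 1 array or 1 experiment left out, cytosolic counts ranged over 9 to 12 (LPS in mouse serum), 6 to 12, 0 to 2 and 1 to 3 (calf, mouse and human against no serum without LPS), 4 to 9 (mouse against no serum with LPS), 4 to 10 and 2 to 10 (mouse against calf, human against mouse), 0 to 4, 7 to 12 and 0 to 3 (mouse against calf, human against calf and human against mouse with LPS), 0 to 1, 0 to 2 and 0 to 2 (response in calf, mouse and human less no serum), and 0 to 3 for mouse less calf and human less calf. Mitochondrial counts ranged over 3 to 6 (LPS in mouse serum), 0 (calf against no serum), 0 to 1 (human against no serum and calf against no serum with LPS), 1 to 2 (mouse against no serum with LPS), 0 to 1 (mouse against calf, human against calf without and with LPS), 0 to 2 (human against mouse with LPS and mouse less calf) and 0 to 1 (calf and human less no serum, human less calf). A group left with 2 arrays was assumed to vary like the others.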
